A study of Mus musculus with 4 samples.

Results

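The genes described here encode 9 antagonists of bone morphogenetic proteins (BMPs): the secreted proteins Chrdl1, Chrd, Nog, Grem1, Twsg1, Fst, Fstl1 and Fstl3 and the membrane protein Bambi. They were chosen by name, and each of the 9 symbols matched 1 Ensembl gene among the 55487 genes of the count table. All 9 passed the filter on low counts, which kept 17120 genes. Expression was read by bulk RNA-seq in mouse skeletal stem cells of ovariectomized wild-type mice (Ovx, 2 libraries) and of sham-operated wild-type mice (Sham, 2 libraries). Every library carries the time 8 weeks, without a statement of whether this is an age or a time since surgery. In all 4 libraries the cells came from collagenase-digested metaphyses of long bones and were sorted by surface antigens, namely the lineage antigens CD45, Tie2 and Ter119 and the skeletal antigens CD51, CD90, CD105, CD200 and 6C3. Nothing says whether the libraries of a group came from separate animals or from pools, so the p-values measure the spread between these libraries, which may be technical.

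BMPs are secreted signals that drive cartilage and bone formation by binding pairs of receptor kinases, which phosphorylate Smad proteins that then switch on target genes such as the Id family. Most of the antagonists bind the BMP outside the cell and keep it from its receptors, and each prefers certain ligands. Follistatin and its relative Fstl3 act chiefly on activins and myostatin, while Bambi is a receptor-like membrane protein without a kinase domain. Removing the ovaries takes away most circulating oestrogen and is used in mice to model bone loss after menopause, and the series is titled as a study of osteoporosis.

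Promoter sequences are shown for the members for which one was available, and the levels of each of these did not overlap between the groups. RefSeq (GRCm38.p6) gave a promoter, from 250 bases before to 50 after the annotated start, for 5 of the 9 members, which are printed here 5′ to 3′. No promoter is shown for Chrdl1, Nog, Fst or Bambi, though the levels of Chrdl1 and Fst did not overlap between the groups either. The printed promoters belong to Chrd (chr16:20732877-20733176, plus strand), Fstl3 (chr10:79777024-79777323, plus strand) and Fstl1 (chr16:37776805-37777104, plus strand), whose levels were above those of both Sham libraries in both Ovx libraries, and to Grem1 (chr2:113758599-113758898, minus strand) and Twsg1 (chr17:65951138-65951437, minus strand), whose levels were below. Capitals mark matches to AGGTCA, the core half-site of several nuclear receptors including the oestrogen receptors, read on both strands and so also as its complement TGACCT, and to GGCGCC, a GC-rich motif found in BMP-responsive enhancers.
Fstl1: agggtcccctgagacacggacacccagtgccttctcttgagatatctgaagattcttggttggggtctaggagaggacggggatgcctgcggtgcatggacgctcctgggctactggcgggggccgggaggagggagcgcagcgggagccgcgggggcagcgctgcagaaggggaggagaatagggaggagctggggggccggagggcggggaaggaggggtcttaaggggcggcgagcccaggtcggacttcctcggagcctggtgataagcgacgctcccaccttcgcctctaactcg
Chrd: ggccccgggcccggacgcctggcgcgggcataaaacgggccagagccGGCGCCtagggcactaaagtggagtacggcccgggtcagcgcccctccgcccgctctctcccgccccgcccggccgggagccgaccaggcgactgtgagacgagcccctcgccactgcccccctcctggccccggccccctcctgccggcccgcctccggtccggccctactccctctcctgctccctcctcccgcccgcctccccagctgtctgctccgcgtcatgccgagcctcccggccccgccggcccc
Fstl3: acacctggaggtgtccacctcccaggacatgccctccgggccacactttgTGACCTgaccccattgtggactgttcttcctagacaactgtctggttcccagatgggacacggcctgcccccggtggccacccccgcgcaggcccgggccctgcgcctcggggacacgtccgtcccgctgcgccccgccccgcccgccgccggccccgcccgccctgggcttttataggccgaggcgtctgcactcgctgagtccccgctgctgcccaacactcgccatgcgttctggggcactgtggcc
Grem1: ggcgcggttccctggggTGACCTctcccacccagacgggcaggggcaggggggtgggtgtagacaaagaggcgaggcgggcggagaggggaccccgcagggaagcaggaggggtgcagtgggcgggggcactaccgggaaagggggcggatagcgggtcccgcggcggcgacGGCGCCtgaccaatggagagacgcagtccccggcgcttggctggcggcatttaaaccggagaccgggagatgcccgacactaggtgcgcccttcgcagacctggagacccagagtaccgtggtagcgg
Twsg1: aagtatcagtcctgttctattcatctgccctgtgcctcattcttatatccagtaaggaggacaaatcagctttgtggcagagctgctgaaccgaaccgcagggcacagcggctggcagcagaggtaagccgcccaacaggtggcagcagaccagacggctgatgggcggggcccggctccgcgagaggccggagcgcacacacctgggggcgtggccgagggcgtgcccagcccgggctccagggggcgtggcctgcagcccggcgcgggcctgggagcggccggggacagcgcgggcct

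AGGTCA was present in 16.3% and GGCGCC in 11.9% of 32851 promoters of this length. The Fstl3 window held AGGTCA on the minus strand at positions -200 to -195 from the start site. The Grem1 window held it on the minus strand at -233 to -228, and GGCGCC at -78 to -73. Chrd had GGCGCC at -203 to -198, and the windows of Fstl1 and Twsg1 held neither motif. The palindrome GTCTAGAC, the Smad box, was in none of the 5 windows and in 0.213% of all promoters. All 5 windows were rich in G and C, from 66.7% in Fstl1 to 78.3% in Chrd, against a median of 52.7% over all promoters. The motif shares over all promoters were not matched for G and C, so they are no fair background for GGCGCC in these windows. Fstl3 and Grem1, which lay in opposite directions, both held AGGTCA, and so did Chrd and Grem1 with GGCGCC. Of the 5 members only Fstl1 differed at an edgeR adjusted p under 0.05. The 5 windows therefore cannot show whether a motif goes with direction. A match is a run of letters and not evidence of binding.

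The libraries held 23228031 and 18291436 counts (Ovx 1 and 2) and 22935095 and 23721078 counts (Sham 1 and 2). Across all tested genes, 510 were called higher and 206 lower in Ovx cells at an edgeR adjusted p under 0.05, and with library totals as the only scaling the split was 718 higher and 156 lower, which moved the median of all genes by 0.11 on the log2 scale. Of the sorted antigens, Itgav (CD51) was at 69.0 and 72.0 CPM in Ovx and 70.4 and 67.3 CPM in Sham libraries, where CPM are counts relative to the TMM-scaled library total, and Cd200 was at 173 and 155 CPM in Ovx and 237 and 305 CPM in Sham libraries. Thy1 (CD90) had at most 5 counts in any library and Ptprc (CD45) at most 9.55 CPM, whereas Eng (CD105) was at 75.2 and 83.1 CPM in Ovx and 21.6 and 52.1 CPM in Sham libraries. The cells also held much cartilage RNA, and 7 chondrocyte markers summed to 62007 and 56481 CPM in Ovx and 105836 and 97691 CPM in Sham libraries.

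Chrdl1, per length the most abundant of the 9 members in Sham cells, was lower in Ovx cells and Fstl1 was higher, and there both stood at about the same level per length. Chrdl1 fell 2.22-fold and Fstl1 rose 2.14-fold, and the other 7 members did not pass the test. The calls stand against a background of 2.98% of all tested genes called higher and 1.2% called lower, and 4.18% in either direction. In 7 of the 9 members the groups did not overlap (4 with both Ovx libraries above both Sham libraries and 3 with both below), which was so for 49.3% of all tested genes (25.5% above and 23.9% below). Since the members were chosen with results of these libraries known, their counts are given as a description.

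**Figure D1:**
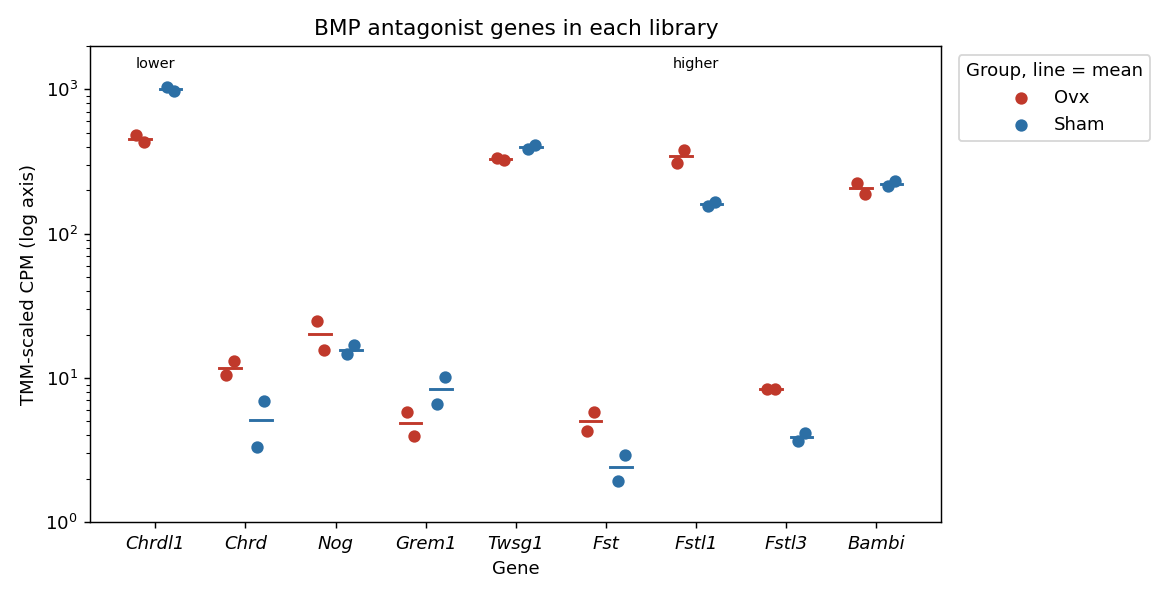
Level of each BMP antagonist gene in each library, in TMM-scaled CPM on a log axis; points are libraries (Ovx left, Sham right), lines are group means, and the words mark the genes called by edgeR. Chrdl1 was below the Sham libraries in both Ovx libraries and Fstl1 above them, while Nog and Bambi overlapped between the groups.

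Among the chordin-type antagonists, Chrdl1 (chordin-like 1; ENSMUSG00000031283, chromosome X, 143285674 to 143394262, minus strand, GRCm38) binds BMPs through cysteine-rich repeats like those of chordin. It had 11391 and 8260 counts in the Ovx libraries and 23264 and 22047 counts in the Sham libraries, which is 482 and 429 CPM in Ovx and 1038 and 982 CPM in Sham cells. Both Ovx libraries lay far below both Sham libraries, and the gap was much wider than the spread within either pair. The log2 fold change was -1.15 ± 0.11 (SE; edgeR adjusted p = 0.00428), the third smallest p among genes with a negative fold change. With 455 ± 37.2 CPM in Ovx and 1010 ± 39.6 CPM in Sham cells (SD, n = 2 each), Chrdl1 ranked 140 among 17120 genes by mean CPM.

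Chordin itself (Chrd; chromosome 16, 20733127 to 20742384, plus strand), the founding secreted BMP antagonist of this family, lay in the opposite direction at a far lower level. It was at 10.5 and 13.0 CPM in Ovx libraries and at 3.30 and 6.95 CPM in Sham libraries. The groups did not overlap, but the Sham pair was widely spread and the difference did not pass (log2 fold change 1.20 ± 0.39 SE, edgeR adjusted p = 0.155). With no filter it was called (log2 fold change 1.21, edgeR adjusted p = 0.0118). Without Sham 2 it was 1.84 and was called (edgeR adjusted p = 0.00436), and without Sham 1 it was 0.76 and was not (edgeR adjusted p = 0.202). Summed CPM of 7 endothelial markers, another cell type in the marrow, was 38.5 and 56.9 in Ovx libraries and 10.04 and 43.9 in Sham 1 and 2. Sham 1 was thus lowest for these markers as for Chrd. The sums of fibroblast, LepR stromal niche and pericyte markers, given below, were also lowest in Sham 1. Those of leukocyte and erythroid markers were lowest in Sham 2, and those of chondrocyte and osteoblast markers in Ovx 2. The part of any of these cell types in the Chrd values was not tested. Of the Chrd exon bases 3.82% are shared with Thpo on the opposite strand, which had at most 11 counts in any library.

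Twsg1 (twisted gastrulation; chromosome 17, 65921972 to 65951226, minus strand) binds both BMPs and chordin and can either strengthen or relieve the inhibition. Its level was 335 and 325 CPM in Ovx libraries and 388 and 412 CPM in Sham libraries. Both Ovx libraries were slightly below both Sham libraries, and the difference did not pass (log2 fold change -0.28 ± 0.11 SE, edgeR adjusted p = 0.226). It stayed between -0.32 and -0.17 under all 12 alternatives tried.

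Nog (noggin; chromosome 11, 89300638 to 89302332, minus strand) is a single-exon gene for a small secreted protein that blocks the receptor-binding faces of several BMPs. It was at 24.7 and 15.6 CPM in Ovx libraries and at 14.5 and 16.9 CPM in Sham libraries. Ovx 1 alone was high and Ovx 2 lay between the Sham libraries, so the groups overlapped (log2 fold change 0.36 ± 0.27 SE, edgeR adjusted p = 0.558). Without Ovx 1 the difference was near 0, at a log2 fold change of 0.0087.

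Grem1 (gremlin 1; chromosome 2, 113746164 to 113758646, minus strand) belongs to the DAN family of cystine-knot BMP antagonists and marks a stromal progenitor in mouse bone. It was at 5.84 and 3.95 CPM in Ovx libraries and at 6.60 and 10.1 CPM in Sham libraries. The groups did not overlap, though Ovx 1 and Sham 1 were close, and the difference did not pass (log2 fold change -0.77 ± 0.36 SE, edgeR adjusted p = 0.325, with -1.06 to -0.42 when 1 library was left out). Its counts were 138 and 76 in Ovx and 148 and 227 in Sham libraries.

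The follistatin relatives lay on the other side. Fstl1 (follistatin-like 1; ENSMUSG00000022816, chromosome 16, 37776873 to 37836514, plus strand) encodes a secreted glycoprotein of mesenchymal cells that has been reported to bind BMPs. It had 7329 and 7281 counts in Ovx libraries and 3489 and 3729 counts in Sham libraries, or 310 and 378 CPM in Ovx and 156 and 166 CPM in Sham cells. Both Ovx libraries were well above both Sham libraries, with means of 344 ± 48.3 CPM in Ovx and 161 ± 7.36 CPM in Sham cells (SD, n = 2 each). The log2 fold change was 1.10 ± 0.14 (SE; edgeR adjusted p = 0.00697).

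Fst (follistatin; chromosome 13, 114452290 to 114458951, minus strand), which neutralizes activins and binds some BMPs, was scarce. It had 102 and 112 counts in Ovx and 43 and 66 counts in Sham libraries, or 4.31 and 5.82 CPM in Ovx and 1.92 and 2.94 CPM in Sham cells. The Ovx values were all above the Sham values, and the difference did not pass (log2 fold change 1.06 ± 0.44 SE, edgeR adjusted p = 0.257). A predicted gene on the opposite strand that shares 2.51% of its exon bases had 0 counts in every library.

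Fstl3 (chromosome 10, 79777272 to 79782630, plus strand), a secreted inhibitor of activins and myostatin, was at 8.33 and 8.36 CPM in Ovx libraries and at 3.66 and 4.19 CPM in Sham libraries. The libraries of each group were nearly equal and the groups were well apart, but the difference did not pass (log2 fold change 1.09 ± 0.31 SE, edgeR adjusted p = 0.111). Its lowest adjusted p over the 12 alternatives was 0.0651. Fstl3 shares 47.3% of its exon bases with Prss57, a serine protease gene of neutrophil granules on the opposite strand, and the counting strand is not given in the sources used here. Prss57 was credited with 11 and 14 counts in Ovx and 0 and 1 counts in Sham libraries, against 197 and 161 counts in Ovx and 82 and 94 counts in Sham libraries for Fstl3. The part of shared reads in the Fstl3 values was not tested.

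Bambi (chromosome 18, plus strand), the membrane pseudoreceptor, differed by less than the spread within the Ovx pair. It was at 224 and 189 CPM in Ovx libraries and at 213 and 232 CPM in Sham libraries, so the groups overlapped. The log2 fold change was -0.11 ± 0.13 (SE; edgeR adjusted p = 0.772). Without Ovx 2 it was 0.028, with the opposite sign. BMP signalling itself is known to induce Bambi as a feedback inhibitor.

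**Figure D2:**
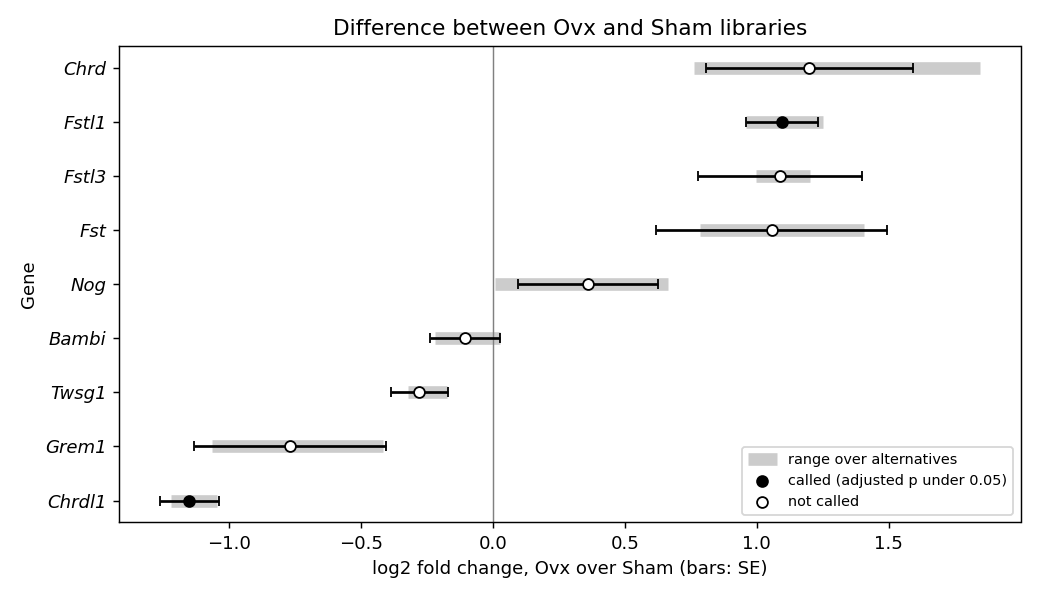
Log2 fold change of each BMP antagonist gene, Ovx over Sham; points with bars are the estimate ± SE from edgeR (filled where called), and grey bands are the range over the alternative settings. Chrdl1 at -1.15 and Fstl1 at 1.10 had narrow bands, and the band of Chrd reached from 0.76 to 1.84.

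The calls of Chrdl1 and Fstl1 rest on both Ovx libraries. Without Ovx 1 the log2 fold changes were -1.22 for Chrdl1 and 1.25 for Fstl1 (edgeR adjusted p = 0.175 for both), and without Ovx 2 they were -1.05 and 0.96 (edgeR adjusted p = 0.187 and 0.192). In these 2 fits edgeR called 0 of all genes, although 1788 and 1618 genes had an unadjusted p under 0.05. Under the other 10 alternatives both genes were called in the same direction.

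To compare the genes with each other, CPM were divided by exon length in kilobases. In Sham cells Chrdl1 was the most abundant member at 149 ± 5.87 CPM per kb, ahead of Twsg1 at 77.7 ± 3.26, Bambi at 43.8 ± 2.71, Fstl1 at 32.7 ± 1.50 and Nog at 9.28 ± 0.99 CPM per kb (SD, n = 2). In Ovx cells Fstl1 at 70.0 ± 9.83, Chrdl1 at 67.4 ± 5.50 and Twsg1 at 64.1 ± 1.40 CPM per kb could not be ordered beyond their spread, and Bambi at 40.7 ± 4.95 and Nog at 11.9 ± 3.78 CPM per kb followed. The remaining members, Chrd, Grem1, Fst and Fstl3, were at most 3.42 CPM per kb in any library, and among them Grem1 and Fst overlapped in Ovx cells, as did Grem1 with Fstl3 and Chrd with Fst in Sham cells.

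The ratio of these levels set Chrdl1 and Fstl1 apart between the groups. Per length, Chrdl1 was 1.13 and 0.825 times as high as Fstl1 in Ovx libraries, against 4.85 and 4.30 times in Sham libraries. The near equality in Ovx libraries depended on the division by length. Without it, Chrdl1 was above Fstl1 in both Ovx libraries, at 482 and 429 CPM against 310 and 378 CPM. Chrdl1 made up 26.8% and 24.6% of the summed level of the 9 members in Ovx libraries and 48.7% and 45.3% in Sham libraries. Fstl1 made up 23.7% and 29.9% in Ovx and 10.1% and 10.5% in Sham libraries. The share of Twsg1 barely differed, at 24.5% and 24.5% in Ovx and 23.9% and 25.0% in Sham libraries. Summed over the 9 members, the level was 266 and 258 CPM per kb in Ovx libraries and 315 and 321 CPM per kb in Sham libraries. With Chrdl1, the only member called lower, left out, the sum lay the other way. It was 194 and 194 CPM per kb in Ovx and 162 and 175 CPM per kb in Sham libraries. These sums and ratios are given without a test, and they partly restate the calls of Chrdl1 and Fstl1.

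**Figure D3:**
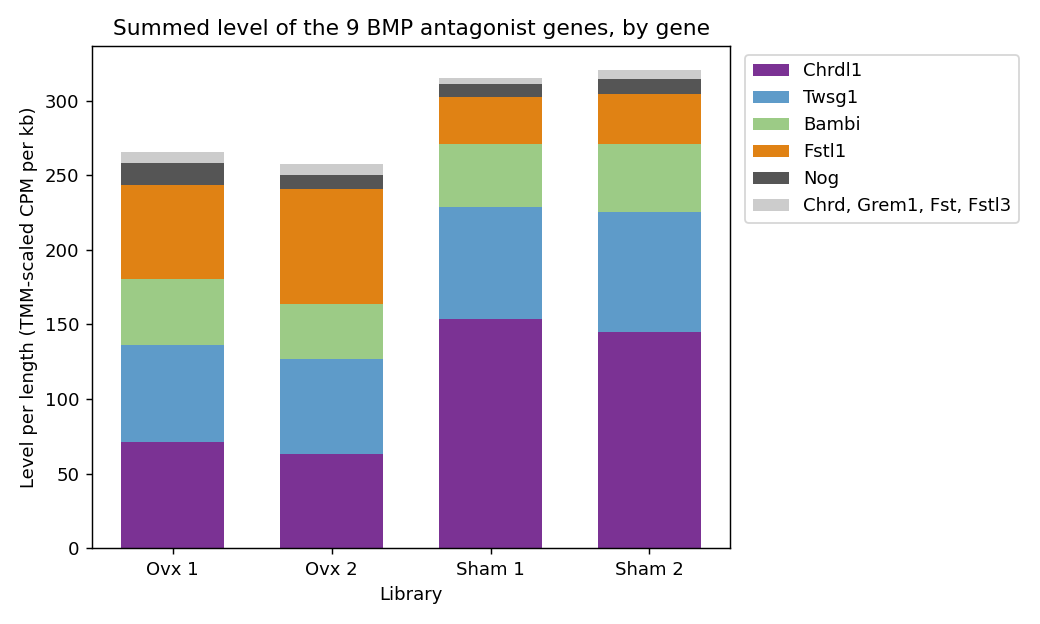
Summed level per length of the 9 BMP antagonist genes in each library (stacked bars, TMM-scaled CPM per kb), by gene. The Chrdl1 block was 71.3 and 63.5 CPM per kb high in Ovx libraries and 154 and 145 CPM per kb high in Sham libraries, and the Fstl1 block 63.1 and 77.0 CPM per kb in Ovx and 31.7 and 33.8 CPM per kb in Sham libraries.

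Markers of cell types moved with both called members. In bulk RNA, fewer cells of a type and less RNA per cell cannot be told apart. Of 7 chondrocyte markers, all had lower CPM in both Ovx libraries than in both Sham libraries and 6 were called lower, with a median log2 fold change of -0.85. Per 1000 CPM of these markers, which are mostly Col2a1, there were 7.77 and 7.60 CPM of Chrdl1 in Ovx libraries and 9.80 and 10.05 CPM in Sham libraries, so Chrdl1 was also lower relative to the markers, by less than in CPM alone. Osteoblast markers, of which 3 of 6 were called lower, summed to 71643 and 65529 CPM in Ovx and 78263 and 107131 CPM in Sham libraries. That sum was mostly Col1a1, which was not called, at 61075 and 57192 CPM in Ovx and 62492 and 88749 CPM in Sham libraries. The log2 fold changes of the called Ibsp, Sp7 and Alpl were -0.98, -0.97 and -0.85, and Bglap and Bglap2 overlapped between the groups. The part of the chondrocyte and osteoblast markers in the Chrdl1 result was not tested.

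Fibroblast markers moved in the same direction as Fstl1, and more steeply. All 6 had higher CPM in both Ovx libraries than in both Sham libraries and 5 were called, with a median log2 fold change of 1.95 and summed CPM of 423 and 466 in Ovx and 92.1 and 134 in Sham libraries. LepR stromal niche markers summed to 271 and 387 CPM in Ovx and 111 and 180 CPM in Sham libraries, with 1 of 4 called higher. The called gene, Cxcl12, made up most of that sum, at 232 and 334 CPM in Ovx and 83.3 and 139 CPM in Sham libraries. In 3 of the 4 both Ovx libraries were above both Sham libraries. Lepr itself overlapped, at 23.4 and 32.7 CPM in Ovx and 20.3 and 27.2 CPM in Sham libraries. Pericyte and smooth muscle markers summed to 567 and 618 CPM in Ovx and 304 and 331 CPM in Sham libraries, with 2 of 6 called higher. Within that list Rgs5 was at 295 and 361 CPM in Ovx and 5.66 and 46.4 CPM in Sham libraries, and Cspg4 lay the other way, at 214 and 222 CPM in Ovx and 284 and 266 CPM in Sham libraries. Leukocyte markers summed to 154 and 247 CPM in Ovx and 81.3 and 50.8 CPM in Sham libraries (2 of 7 called higher, Mpo and Elane). Mpo was at 58.3 and 110 CPM in Ovx and 3.39 and 0.49 CPM in Sham libraries. Of the 7, 4 had both Ovx libraries above both Sham libraries and 3 overlapped. Ptprc was among the 3, with a log2 fold change of -0.57. Erythroid markers summed to 113 and 149 CPM in Ovx and 34.9 and 20.4 CPM in Sham libraries (2 of 4 tested called higher). The endothelial markers Cdh5 and Emcn were at 0 counts in Sham 1, and the erythroid factor Klf1 was at 0 counts in Sham 2. The part of these cell types in the Fstl1 result was not tested.

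**Figure D4:**
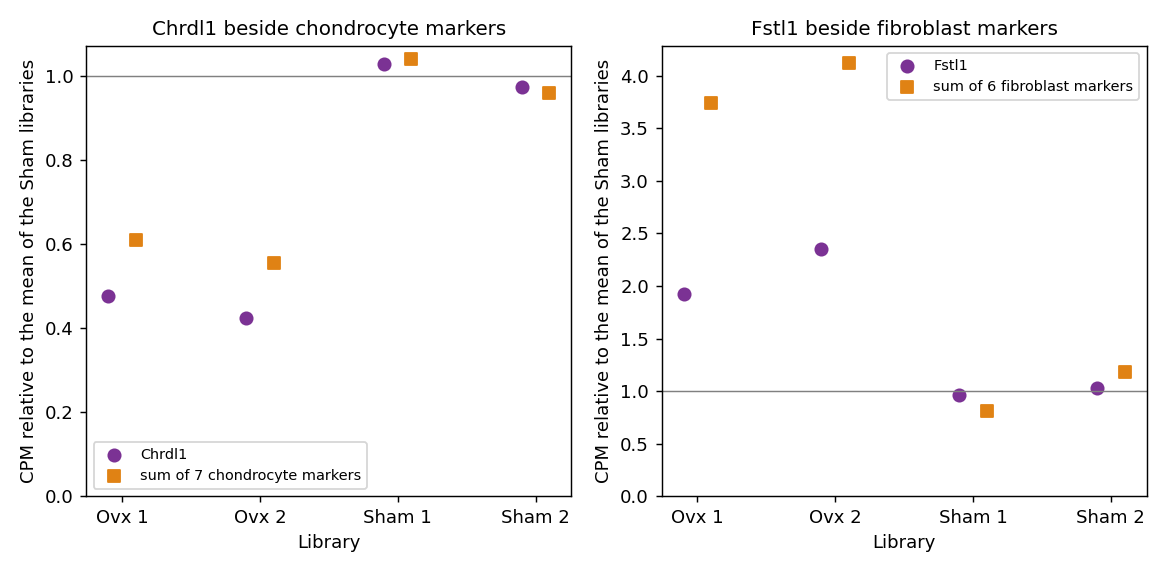
Chrdl1 beside the sum of 7 chondrocyte markers (left) and Fstl1 beside the sum of 6 fibroblast markers (right) in each library, as CPM relative to the mean of the Sham libraries. Chrdl1 and the chondrocyte markers were both lower in Ovx libraries, and the fibroblast markers, at 423 and 466 summed CPM in Ovx and 92.1 and 134 in Sham libraries, were higher by a larger factor than Fstl1.

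The genes with the pattern most like that of Chrdl1 over the 4 libraries were Susd5, Polr2l and Nrep. Likeness was the Euclidean distance between log2 CPM centred on each gene's mean. It was read among the 2633 other genes with an established symbol and a mean CPM of 50 or more. The distance was 0.119 for Susd5, 0.119 for Polr2l and 0.139 for Nrep. Susd5, a membrane protein gene, was at 662 and 621 CPM in Ovx and 1441 and 1267 CPM in Sham libraries. Polr2l, a small subunit shared by the RNA polymerases, was at 36.6 and 32.0 CPM in Ovx and 83.0 and 69.9 CPM in Sham libraries. Among the members the nearest to Chrdl1 was Grem1, at a distance of 0.683, and the farthest Chrd, at 2.57.

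Of 64 other genes of the BMP and activin pathway, 55 could be tested, and 4 were called higher and 2 lower, beside background shares of 2.98% and 1.2%. Their median log2 fold change was 0.028, against -0.016 over all tested genes. The number called higher lay between 4 and 9 under the other settings that used all 4 libraries, and the number called lower was 2 in each of them. At an unadjusted p under 0.05 there were 12 higher and 7 lower genes, beside 10.6% of all tested genes higher and 7.83% lower at that threshold. The DESeq2 test called 8 higher and 2 lower, and limma-voom 9 higher and 2 lower.

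Among 12 other extracellular antagonists, 9 were tested, 1 was called higher and 0 lower. This was Nbl1 (DAN), the founder of the family that holds gremlin. It was at 337 and 349 CPM in Ovx libraries and at 71.6 and 111 CPM in Sham libraries (log2 fold change 1.91 ± 0.21 SE, edgeR adjusted p = 0.00482). Per length, Nbl1 stood at 169 ± 4.45 CPM per kb in Ovx and 45.0 ± 13.8 CPM per kb in Sham cells (SD, n = 2 each). Its level in Ovx cells was therefore above that of each of the 9 members there. Cer1 had 0 counts in all libraries. Neither of the 2 tested tolloid proteases, which cut chordin and free its BMP, was called: Bmp1 was at 299 and 220 CPM in Ovx and 303 and 344 CPM in Sham libraries (edgeR adjusted p = 0.377, and 0.933 for Tll1). Tll1 was at 2.71 and 1.19 CPM in Ovx and 1.11 and 2.27 CPM in Sham libraries. The DESeq2 test and limma-voom called 0 of these proteases too.

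Of 9 tested BMP and GDF ligands 1 was called lower and 0 higher with edgeR. Bmp8a was at 43.9 and 36.1 CPM in Ovx libraries and at 66.6 and 69.5 CPM in Sham libraries (log2 fold change -0.76 ± 0.15 SE, edgeR adjusted p = 0.0398). Bmp4, named after its values were seen, was at 20.0 and 27.3 CPM in Ovx and 11.3 and 11.8 CPM in Sham libraries. Its log2 fold change of 1.03 ± 0.23 SE did not pass with edgeR (adjusted p = 0.0589), and it was called higher by the DESeq2 test (adjusted p = 0.00970) and by limma-voom (adjusted p = 0.0461). Together, the ligands summed to 99.2 and 101 CPM per kb in Ovx and 112 and 140 CPM per kb in Sham libraries. The summed level of the 9 antagonists was 2.68 and 2.54 times that of the ligands in Ovx libraries and 2.83 and 2.29 times in Sham libraries, so the ranges overlapped. With the other tested antagonists added, the ratio was 4.46 and 4.33 in Ovx and 3.26 and 2.79 in Sham libraries. Nbl1 made up 166 and 172 of the 177 and 181 CPM per kb of these added genes in Ovx libraries, and 35.2 and 54.8 of 48.9 and 68.8 CPM per kb in Sham libraries.

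Activins are ligands that follistatin binds and blocks. Inhba, which encodes the subunit of activin A, was the 1 called gene of 4 tested activin-type ligands, at 140 and 150 CPM in Ovx and 39.5 and 63.0 CPM in Sham libraries (log2 fold change 1.50 ± 0.22 SE, edgeR adjusted p = 0.0120). Per length Inhba was 23.3 and 18.5 times as abundant as Fst in Ovx libraries and 14.8 and 15.4 times in Sham libraries.

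Of 12 tested receptors and co-receptors 1 was called higher and 0 lower, with a median log2 fold change of 0.57. Rgmb, a membrane-anchored BMP co-receptor, was at 46.6 and 43.1 CPM in Ovx libraries and at 12.3 and 15.2 CPM in Sham libraries (log2 fold change 1.71 ± 0.19 SE, edgeR adjusted p = 0.00482). The DESeq2 test also called Acvrl1 higher (adjusted p = 0.00933), and limma-voom Acvrl1 (adjusted p = 0.0344) and Eng (adjusted p = 0.0471). None of 4 Smads passed the edgeR test, and the smallest p among them were those of Smad5, with a log2 fold change of 0.50 ± 0.16 SE (edgeR adjusted p = 0.155), and of Smad9, with -0.52 ± 0.53 SE (edgeR adjusted p = 0.703). At an unadjusted p under 0.05 there was 1 Smad, and the DESeq2 test and limma-voom called 0. Of 6 intracellular inhibitors, 1 was called higher: Smurf1, a ubiquitin ligase that marks BMP Smads for degradation, at 7.44 and 11.2 CPM in Ovx and 3.03 and 1.96 CPM in Sham libraries (log2 fold change 1.89 ± 0.39 SE, edgeR adjusted p = 0.0453). Ski, which did not pass with edgeR (adjusted p = 0.0732), was called higher by the DESeq2 test (adjusted p = 0.00791) and by limma-voom (adjusted p = 0.0344). Acvrl1, Eng and Ski were named after their values were seen.

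Of 9 target genes 1 was called lower and 0 higher with edgeR, and 1 lower and 1 higher with the DESeq2 test and with limma-voom. Their median log2 fold change was -0.29 with edgeR. Dlx5, a homeobox factor of osteoblasts and chondrocytes induced by BMPs, was at 39.5 and 32.3 CPM in Ovx and 80.3 and 66.6 CPM in Sham libraries (log2 fold change -1.03 ± 0.17 SE, edgeR adjusted p = 0.0192). Chondrocyte and osteoblast markers, given above, had lower sums in the Ovx libraries, and their part in the Dlx5 result was not tested. None of the 4 Id genes, direct targets of BMP Smads, passed with edgeR, and 3 had negative and 1 a positive log2 fold change. Id3 was at 601 and 555 CPM in Ovx and 387 and 442 CPM in Sham libraries (log2 fold change 0.48 ± 0.12 SE; adjusted p = 0.0751 with edgeR). It was called higher by the DESeq2 test (adjusted p = 0.00182) and by limma-voom (adjusted p = 0.0245). Id1 was at 151 and 129 CPM in Ovx and 181 and 177 CPM in Sham libraries, and Id2 at 477 and 393 CPM in Ovx and 533 and 556 CPM in Sham libraries. Id4 was at 6.22 and 6.02 CPM in Ovx and 5.49 and 9.53 CPM in Sham libraries. The log2 fold changes of Id1, Id2 and Id4 were -0.35, -0.32 and -0.29, and neither the DESeq2 test nor limma-voom called them. The Id genes were named after their values were seen.

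**Figure D5:**
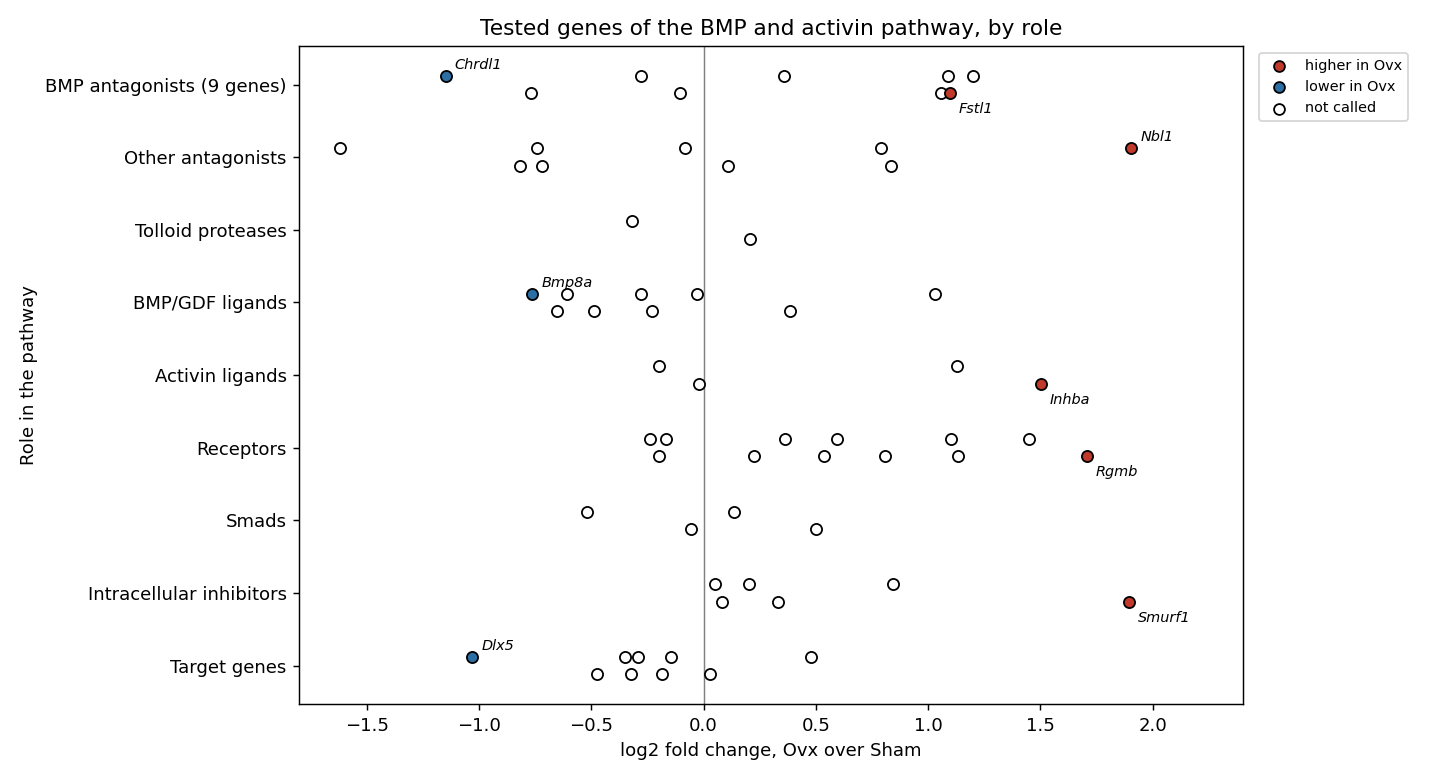
Log2 fold change (Ovx over Sham) of each tested gene of the BMP and activin pathway, by role; filled points were called at an edgeR adjusted p under 0.05. The called genes were spread over the roles, with 1 in each of 6 other lists besides Chrdl1 and Fstl1 among the 9 antagonists, and none among the tolloid proteases and the Smads.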

How the data were processed

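Bulk RNA-seq of 2 Ovx and 2 Sham libraries was used. The authors deposited raw read counts per Ensembl gene, not normalized. The submitters' processing notes name Trim Galore 0.6.6, featureCounts 2.0.1 and the build GRCm38 (mm10). For the aligner, annotation release and strand setting, the sources used here give nothing. Symbols, positions and exon lengths came from GENCODE M21 (GRCm38), which matched 55227 of 55487 IDs.

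Counts were filtered by filterByExpr (default), scaled by TMM and tested in edgeR 4.0.16 (R 4.3.3) by its quasi-likelihood F test, which is two-sided, with Benjamini-Hochberg adjustment over 17120 genes. The SE is the log2 fold change divided by the square root of F. The test was tried on counts simulated from the model that edgeR fitted, with libraries drawn independently. Such counts cannot show whether the spread between the real libraries is technical. A count was worth 0.0423 to 0.0519 CPM. The 12 alternatives included DESeq2 1.42.0 and limma 3.58.1.

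The members and lists were chosen with earlier results of these data known. All members were named. From each other list, called members (at most 4 by smallest p), or otherwise the 2 with the smallest p, were named, and the 3 genes most like Chrdl1. Protein sequences were not analysed here.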

Additional observations from a re-analysis of the deposited data

How the results depend on the processing

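The 9 members kept their sign under all alternatives in which they were tested, except Bambi, which ranged from -0.22 to 0.028 (the last without Ovx 2). Chrdl1 ranged from -1.22 to -1.05 and Fstl1 from 0.96 to 1.25 when 1 library was left out, with neither called without Ovx 1 or Ovx 2, fits in which only the Sham pair gave a measure of spread. Chrd was called with no filter (1.21) and without Sham 2 (range 0.76 to 1.84). Members called higher were 2 with no filter and 0 to 2 with 1 library left out, and members called lower 0 to 1. Fst was not tested at a mean of 5 CPM.

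Other pathway genes called higher were 8 with library totals and with the DESeq2 test, and 9 with no filter, the 5 CPM filter, limma-voom or the replicate block. With 1 library left out, 0 to 10 were called higher and 0 to 5 lower. The sign of Tll1 turned without Ovx 1 (-0.48) and without Sham 1 (-0.21; range -0.48 to 0.82), and that of Smad9 without Ovx 1 (range -1.60 to 0.13).

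Over all genes, 930 were higher and 486 lower with the DESeq2 test, and 1112 and 544 with no filter. Lower genes were 313 with limma-voom, 406 with the 5 CPM filter and 329 with the replicate block. Leaving out 1 library gave 0 to 1277 higher and 0 to 558 lower genes. The cause was not tested. The libraries share only replicate numbers: deviations of same-numbered libraries from their group means correlated with r = 0.0043 across genes, which are not independent. The block changed the call of no member. With 2 libraries a group, a member that did not pass is not shown to be unchanged, least of all Fst, Grem1, Chrd and Fstl3, which were the lowest in level.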
